A study of Caenorhabditis elegans with 16 samples.

Results

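The mitochondrial genome of *C. elegans* encodes the 36 genes described here, which are all the rows listed as class mitochondria among 56374 transcripts in the small RNA count tables. They comprise 2 rRNAs, 22 tRNAs and 12 mRNAs. Reads on the same strand (sense) and on the opposite strand (antisense) of each gene were examined in 10 small RNA libraries. Levels are given as sense reads per 1000000 counted reads outside the class of nuclear rRNA (RPM).

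Mitochondrial DNA is transcribed inside the organelle, and its tRNAs lie between the other genes, where their excision separates the transcripts. Its rRNAs and tRNAs serve the mitochondrial ribosome, and its mRNAs encode core subunits of the respiratory chain. These transcripts are made in another compartment than the cytoplasmic and nuclear small RNA pathways, in which RNA-dependent RNA polymerases copy an RNA into antisense siRNAs and Argonaute proteins bind them. CDE-1 is a polymerase that adds uridines to RNA ends, and the study sequenced small RNAs with and without it to ask how its loss bears on antisense siRNAs of nuclear rRNA.

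Each of the following groups had 1 library, and all worms were kept at 20 °C. Total small RNA came from young adults of *cde-1(tm936)* and of N2, the wild type, on OP50 bacteria. Small RNAs bound to HRDE-1, an Argonaute of germline nuclei, came from young adults of *cde-1(tm936);GFP::HRDE-1* and of *GFP::HRDE-1* on OP50. Those bound to WAGO-1, a germline Argonaute, came from young adults of *cde-1(tm936);GFP::WAGO-1* and of *GFP::WAGO-1* on OP50. Those bound to NRDE-3, which carries siRNAs into the nuclei of somatic cells, came from embryos of *cde-1(tm936);GFP::NRDE-3* and of *GFP::NRDE-3* on OP50. They also came from L3 larvae on HT115 bacteria that carried *GFP::NRDE-3* and *eri-1(mg366)*, with *cde-1(tm936)* (called *eri-1;cde-1*) or without it (called *eri-1*). ERI-1 is an exonuclease needed for a set of endogenous siRNAs, and both L3 strains carried its mutation. All 8 immunoprecipitated (IP) libraries came from transgenic strains and an anti-FLAG antibody, and the total libraries did not. No mock IP was analysed here. In whole worms, fewer cells of a type and less RNA per cell cannot be told apart.

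With 1 library per group there was no replicate check and no p-value. Intervals are exact 95% intervals and, like the read floors, cover counting error only, since sequenced reads here were not traced to separate molecules. The libraries held 5200610 to 9919222 counted reads, of which 10.3% to 66.2% were nuclear rRNA. The targeted gene (listed as cid-1) had 95 sense reads in *cde-1* and 629 in N2 total small RNA, and its RPM was lower in the mutant in all 5 pairs. Embryo-enriched mir-35 to mir-42 stood at 3598 and 3541 RPM in the *cde-1* and control embryo libraries, against 433 and 275 RPM in the *eri-1;cde-1* and *eri-1* L3 libraries. The larval miRNA lin-4 had 464 and 285 RPM at L3, against 0.352 and 0.329 RPM (2 reads and 1 read) in embryos. These miRNAs thus differed between the embryo and L3 libraries as their labels would have it, although the study's methods name embryos for immunoprecipitation and only synchronized worms for the sequenced small RNAs, and the title of the *eri-1;cde-1* library prints another allele number (tm939) than its genotype label. The stage and allele of the labels were used.

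All 36 genes lie on the plus strand of the mitochondrial DNA (MtDNA) in WBcel235. The shorter rRNA, MTCE.7, spans MtDNA:898-1593 and the longer, MTCE.33, spans MtDNA:10403-11354. The mRNAs encode 7 subunits of complex I (ND1 to ND6 and ND4L), cytochrome b of complex III (CYTB), 3 subunits of complex IV (COX1 to COX3) and 1 of ATP synthase (ATP6). The tRNAs, of 52 to 62 nt, are named by their identifiers because the annotation used here gives no amino acid for them. Genes that overlap by more than 10 nt are MTCE.15, a tRNA at MtDNA:3362-3416, and ND2, which share 28 nt, so reads there could not be assigned to one of the pair.

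Sense reads were found on every mitochondrial gene in total small RNA and on 25 of 36 genes in all 10 libraries. At least 50 reads in every library were reached by 11 genes, namely both rRNAs, 2 tRNAs and 7 mRNAs. Mitochondrial sense reads stood at 46639 RPM in *cde-1* and 26504 RPM in N2 total small RNA. In young adult IPs they were 922 RPM in *cde-1* and 916 RPM in its control for HRDE-1, and for WAGO-1 1196 RPM in *cde-1* and 1008 RPM in its control. The NRDE-3 IP held 724 RPM in *cde-1* embryos and 2152 RPM in control embryos, and 21278 RPM in *eri-1;cde-1* and 16420 RPM in *eri-1* L3 larvae. The L3 NRDE-3 libraries were therefore nearer to total small RNA in this level than to the other IP libraries. They resembled total small RNA in another measure as well, since sense reads on protein-coding genes were 51.9% and 62.6% of reads outside rRNA in *eri-1;cde-1* and *eri-1* L3 libraries, against 61.4% and 63.5% in *cde-1* and N2 total small RNA. The part of RNA carried along without NRDE-3 in the L3 level was not tested.

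**Figure D1:**
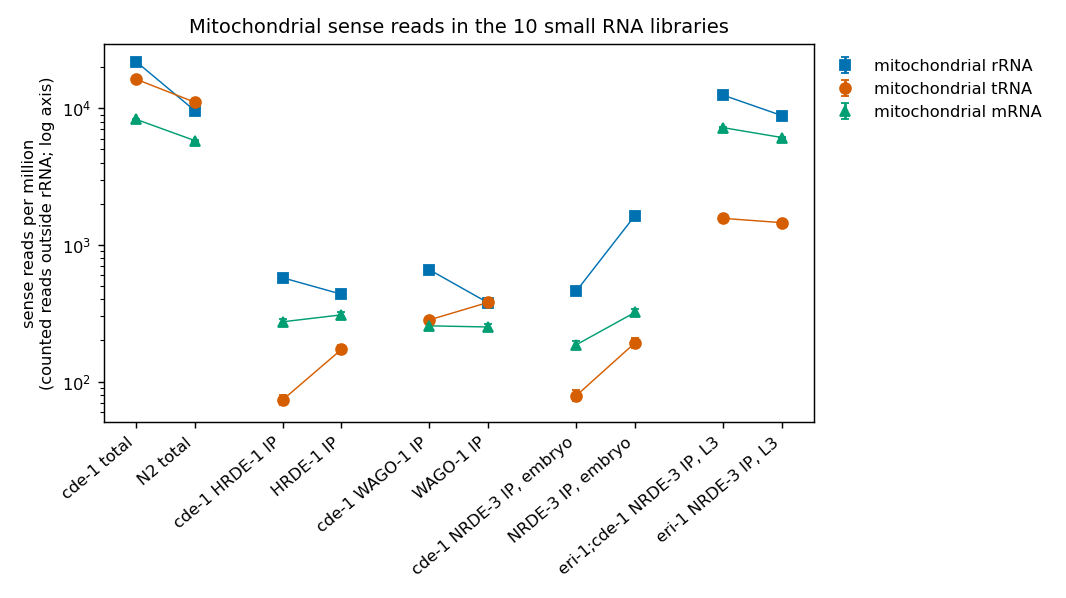
Sense reads on mitochondrial rRNA, tRNA and mRNA (RPM, log axis) in each library, with lines joining the *cde-1* mutant (left) to its control (right) and exact counting intervals that are mostly smaller than the symbols. Levels in total small RNA and in the L3 NRDE-3 IPs lay above those of the other IPs, and rRNA was higher without *cde-1* in every pair except the embryos.

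Reads on the strand opposite to the genes were nearly absent. Over all 10 libraries, 97 antisense reads were counted against 653995 sense reads. Of these, 76 lay on mRNAs, 12 on tRNAs and 9 on rRNAs, no gene had more than 6 in a library, and 18 genes had none in any. The antisense share of mitochondrial reads was 0.0150% (0.0107% to 0.0205%) in *cde-1* and 0.0124% (0.00766% to 0.0189%) in N2 total small RNA. It was highest in the *cde-1* HRDE-1 IP, at 0.0801% (0.0260% to 0.187%), from 5 reads, against 1 read in the HRDE-1 control. The intervals of every mutant and control pair overlapped, and the difference in antisense share within a pair was not tested.

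The nuclear genome encodes further subunits of the respiratory complexes and ATP synthase, and other mitochondrial proteins, and these transcripts are open to cytoplasmic siRNA synthesis. Of lists of such genes, 126 were found, which cover complexes I to IV, ATP synthase, the mitochondrial ribosomal proteins, and mitochondrial DNA and RNA metabolism. Antisense reads made up 53.0% of their reads in the *cde-1* HRDE-1 IP and 44.0% in its control, and 41.3% in the *cde-1* WAGO-1 IP and 39.4% in its control. In the NRDE-3 IP of embryos the share was 54.4% in *cde-1* and 22.2% in the control. Antisense RPM there was 288 in *cde-1* and 270 in the control (1.07, 0.980 to 1.16), while sense RPM was 241 and 948. In total small RNA the antisense share was 4.56% in *cde-1* and 3.94% in N2, and at L3 6.09% in *eri-1;cde-1* and 2.75% in *eri-1*. The antisense RPM ratio of *cde-1* to control was 1.10 in total small RNA, 1.75 at L3, 1.19 for HRDE-1 and 0.980 for WAGO-1. In each library the interval for the nuclear-encoded genes lay entirely above that for the mitochondrial genome.

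Among single nuclear-encoded genes, atp-1, the alpha subunit of ATP synthase, had 49.8 antisense RPM in the HRDE-1 IP and 19.1 antisense RPM in N2 total small RNA. For gas-1, a complex I subunit, the HRDE-1 IP had 59.9 antisense RPM and N2 total small RNA 2.81. The ribosomal protein gene mrpl-35 had 89.8 antisense RPM in the HRDE-1 IP, against 5.00 in N2 total small RNA. The catalytic subunit of the mitochondrial DNA polymerase, polg-1, had 24.4 antisense RPM in the HRDE-1 IP and 7.81 in N2 total small RNA. These single genes were picked for a high mean antisense RPM over the 10 libraries, the HRDE-1 IP among them. That choice itself favoured a high level there, so they are no support for one. Over all 126 genes the antisense level was 2016 RPM in the HRDE-1 IP and 466 RPM in N2 total small RNA, a ratio of 4.32 (4.15 to 4.51). By list this ratio was 6.25 for complex I, 2.69 for complex II, 3.47 for complex III, 3.57 for complex IV, 3.94 for ATP synthase, 4.32 for the ribosomal proteins and 2.73 for DNA and RNA metabolism. Antisense reads on all protein-coding genes had a ratio of 5.53. For WAGO-1 the antisense level was 1235 RPM in the IP and 466 RPM in N2 total small RNA, a ratio of 2.65 (2.54 to 2.76), against 6.21 for all protein-coding genes, so neither sum over the 126 genes stood above that class. Nuclear-encoded partners thus gave antisense beside sense reads in the adult IPs, and the mitochondrial transcripts almost only sense reads.

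**Figure D2:**
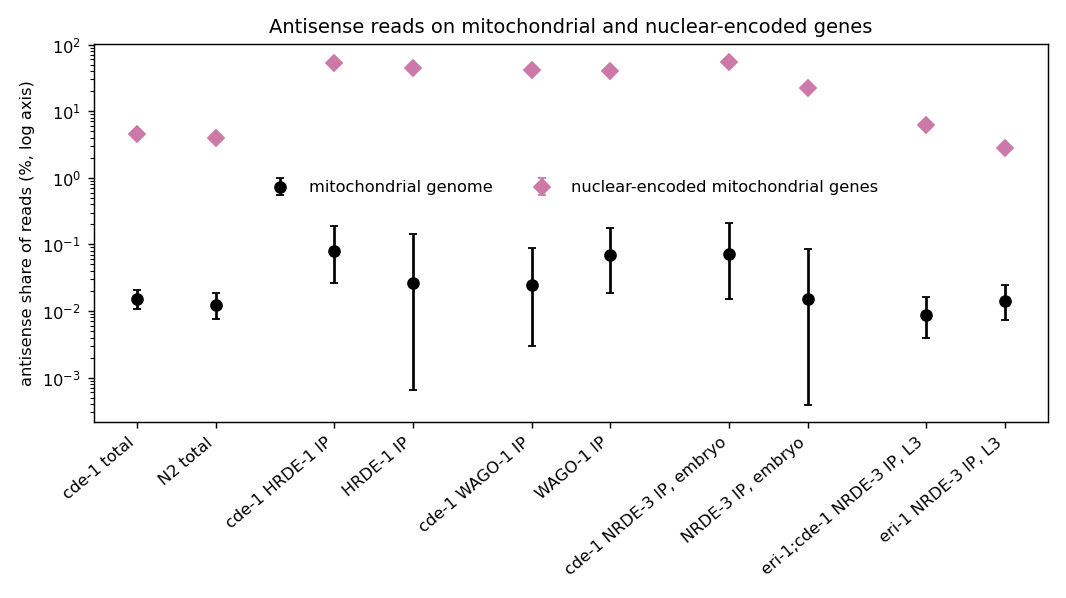
Antisense share of reads (%, log axis) on the 36 mitochondrial genes and on 126 nuclear-encoded mitochondrial genes in each library, with exact 95% intervals and the *cde-1* mutant left of its control. The mitochondrial share stayed at or below 0.0801%, and the nuclear-encoded share was 2.75% or more.

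Summed over each kind, rRNA and tRNA fragments outnumbered mRNA fragments per kb of gene. Many single tRNAs did not share this. In N2 total small RNA MTCE.29 stood at 46.3, MTCE.24 at 327 and MTCE.19 at 382 RPM per kb, against 556 for the summed mRNAs. The tRNA sum there rested mostly on MTCE.10 and MTCE.9, with 52.6% and 21.0% of mitochondrial tRNA reads. In total small RNA the rRNA level per kb was 16.8 times the mRNA level in *cde-1* and 10.5 times in N2, and the tRNA level per kb was 16.9 times the mRNA level in *cde-1* and 16.4 times in N2. At L3 the tRNA excess per kb was only 1.86 in *eri-1;cde-1* and 2.04 in *eri-1*. Of mitochondrial sense reads in N2 total small RNA, 36.3% were rRNA, 41.8% tRNA and 21.9% mRNA. In the *eri-1* L3 NRDE-3 IP the shares were 53.9% rRNA, 8.87% tRNA and 37.2% mRNA. The total and L3 libraries thus differed in the make-up of their mitochondrial reads, with a smaller tRNA share at L3. A small tRNA share was not particular to L3, since it was 10.9% in *cde-1* and 8.91% in control embryos. It was 7.98% in *cde-1* and 18.8% in the control for HRDE-1, and 23.6% in *cde-1* and 37.7% in the control for WAGO-1.

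**Figure D3:**
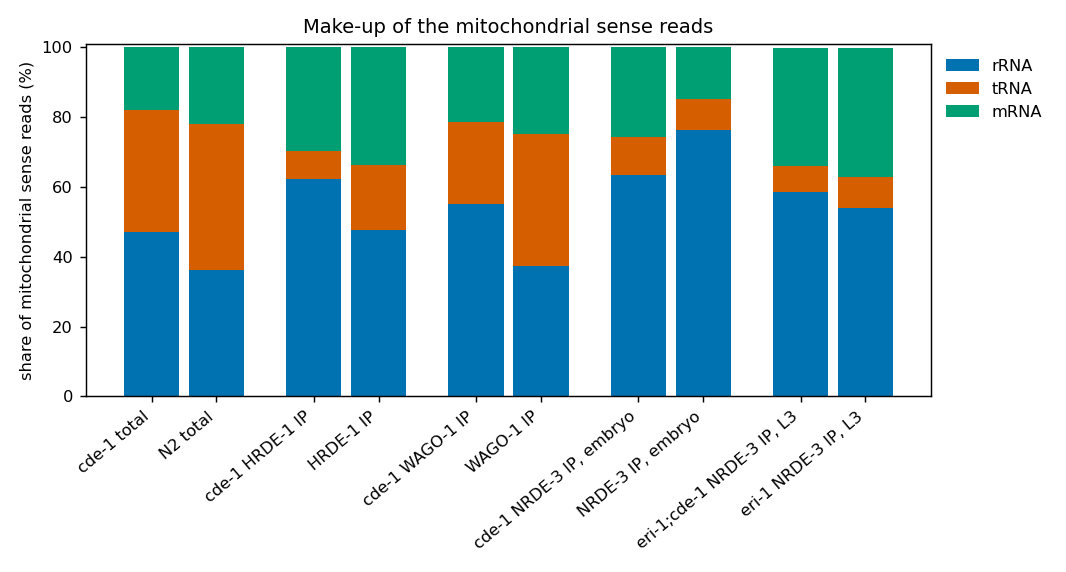
Shares of rRNA, tRNA and mRNA among mitochondrial sense reads (%) in each library, with the *cde-1* mutant left of its control. The rRNA share was larger without *cde-1* in 4 of 5 pairs (47.2% and 36.3% in *cde-1* and N2 total small RNA) and smaller in embryos (63.4% in *cde-1* and 76.2% in the control).

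The tRNAs differed among themselves far more than the mRNAs did. The highest tRNA stood 1543 times above the lowest per kb in *cde-1* and 2290 times in N2 total small RNA, whereas the range over the mRNAs was 9.44 times in *cde-1* and 10.9 times in N2. MTCE.10, at MtDNA:1707-1761, led with 8463 RPM in *cde-1* and 5829 RPM in N2, which was 51.8% and 52.6% of all mitochondrial tRNA reads. MTCE.9, which ends 4 nt upstream of it, followed with 3456 RPM in *cde-1* and 2325 RPM in N2. The lowest was MTCE.29, with 5.38 RPM (30 reads) in *cde-1* and 2.50 RPM (16 reads) in N2. It lies 1 nt from MTCE.28 on one side and 1 nt from MTCE.30 on the other, which had 745 and 745 RPM in *cde-1* and 442 and 348 RPM in N2.

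Such steps between adjacent tRNAs recurred along the genome, though not at every pair. MTCE.9 stood 37.2 times above MTCE.8, its neighbour 1 nt upstream, per kb in *cde-1* and 67.3 times in N2 total small RNA. MTCE.2 stood 47.2 times above MTCE.1 per kb in *cde-1* and 64.7 times in N2, where MTCE.1 had 42 and 18 reads. MTCE.14 was at 0.0500 of the level of MTCE.13 per kb in *cde-1* and 0.0316 in N2. Other adjacent tRNAs were closer. MTCE.20 was at 0.887 of MTCE.19 per kb in *cde-1* and 0.723 in N2, and MTCE.18 at 0.394 of MTCE.17 in *cde-1* and 0.845 in N2. MTCE.10 stood 2.45 times above MTCE.9 per kb in *cde-1* and 2.51 times in N2. The order of the 36 genes was nearly the same in both libraries (Spearman's rho of 0.96 over the genes, as a description). These levels count cloned small RNA fragments and are not a measure of the intact RNA.

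**Figure D4:**
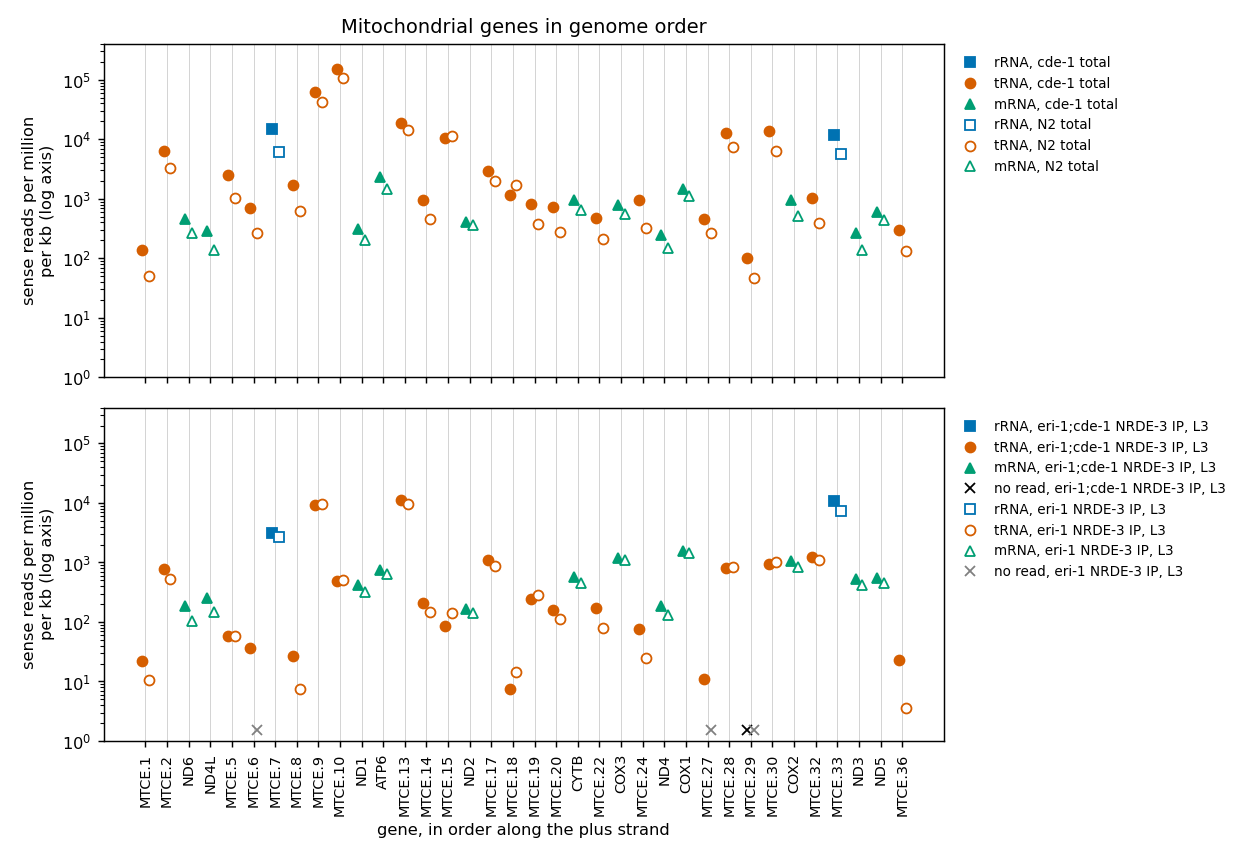
Sense RPM per kb (log axis) of the 36 genes in their order along the plus strand, in total small RNA (upper panel) and the L3 NRDE-3 IPs (lower panel). Filled symbols are the *cde-1* mutants and open symbols their controls. Some adjacent tRNAs, such as MTCE.28, MTCE.29 and MTCE.30, differed by orders of magnitude, and MTCE.10 was high in total small RNA (5829 RPM in N2) and low at L3 (27.8 RPM in *eri-1*).

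Loss of *cde-1* went with more mitochondrial fragments in total small RNA. The level of all 36 genes was 46639 RPM in *cde-1* and 26504 RPM in N2, a ratio of 1.76 (1.75 to 1.77). The rRNAs stood at 21994 RPM in *cde-1* and 9622 RPM in N2 (2.29, 2.26 to 2.31), the tRNAs at 16338 RPM in *cde-1* and 11077 RPM in N2 (1.47, 1.46 to 1.49), and the mRNAs at 8307 RPM in *cde-1* and 5805 RPM in N2 (1.43, 1.41 to 1.45). These ratios stayed above 1 under each other denominator or scaling computed. Of 34 genes with at least 50 sense reads in either library, 14 were past 2-fold higher and 0 past 2-fold lower. Over all 13109 features outside rRNA, 2.40% were past 2-fold higher and 1.62% past 2-fold lower. The median log2 ratio was 0.84 over the mitochondrial genes and -0.01 over all features. The number past 2-fold higher was 8 when all counted reads were the denominator, and 7 when TMM or median-of-ratios scaling was used. The median log2 ratio of all features was then -0.15, -0.25 and -0.21, and their share past 2-fold is not given.

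The genes past 2-fold higher were both rRNAs, 11 of 20 tRNAs tested and 1 of 12 mRNAs. MTCE.7 had 10568 RPM in *cde-1* and 4305 RPM in N2, a ratio of 2.45 (2.42 to 2.49). MTCE.33 had 11426 RPM in *cde-1* and 5317 RPM in N2, a ratio of 2.15 (2.12 to 2.18). The mRNA was ND4L, at 67.5 RPM in *cde-1* and 32.8 RPM in N2, and the other 11 mRNAs had ratios from 1.10 (ND2) to 1.93 (ND3). COX1, with the most reads of the mRNAs, had 2360 RPM in *cde-1* and 1794 RPM in N2, a ratio of 1.32 (1.28 to 1.35). ATP6, the highest mRNA per kb in both, had 1375 RPM in *cde-1* and 889 RPM in N2, a ratio of 1.55 (1.49 to 1.60).

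The 3 most abundant tRNAs had lower ratios than most others in total small RNA. MTCE.10 had a ratio of 1.45 (1.43 to 1.47), MTCE.9 of 1.49 (1.46 to 1.52) and MTCE.13 of 1.32 (1.27 to 1.37), with 1166 RPM in *cde-1* and 884 RPM in N2. The highest ratio was that of MTCE.24, at 53.1 RPM in *cde-1* and 18.0 RPM in N2 (2.96, 2.38 to 3.70). The tRNAs below 1 were MTCE.18, at 63.4 RPM in *cde-1* and 91.1 RPM in N2 (0.696, 0.608 to 0.795), and MTCE.15, at 575 RPM in *cde-1* and 617 RPM in N2 (0.932, 0.889 to 0.977). Sense reads on nuclear tRNA genes, by contrast, were 42169 RPM in *cde-1* and 56887 RPM in N2, a ratio of 0.741 (0.737 to 0.745). Sense reads on the 126 nuclear-encoded mitochondrial genes had a ratio of 0.946 (0.935 to 0.956), at 10748 RPM in *cde-1* and 11366 RPM in N2. The embryo-enriched mir-35 to mir-42 were at 5014 RPM in *cde-1* and 7868 RPM in N2, lin-4 at 48.5 RPM in *cde-1* and 48.0 RPM in N2, and let-7 at 464 RPM in *cde-1* and 357 RPM in N2. Nuclear rRNA sense reads per 1000000 reads outside rRNA were 559744 in *cde-1* and 417247 in N2, a ratio of 1.34. The part of the miRNA and rRNA differences in the mitochondrial ratios was not tested.

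**Figure D5:**
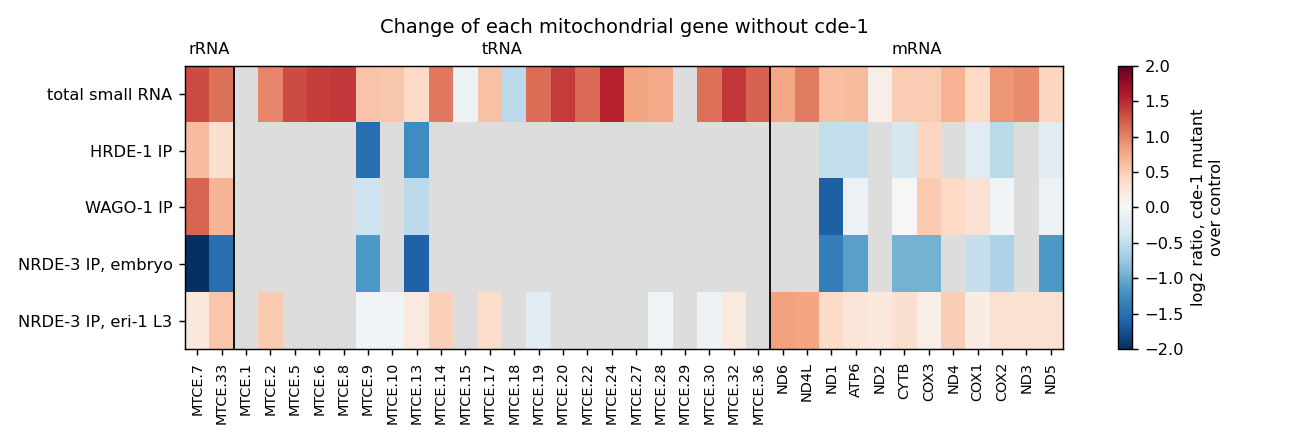
Log2 ratio (1 read added) of sense RPM, *cde-1* mutant over control, for each mitochondrial gene in the 5 pairs. Grey marks genes under 50 reads in both libraries. Both rRNAs were above 0 in 4 pairs and below 0 in embryos, but MTCE.7 at L3 turned to a ratio of 0.927 relative to miRNA reads. In embryos 7 of 11 genes were past 2-fold lower, as were 84.9% of all features. The 7 became 0 relative to all counted reads.

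In the L3 NRDE-3 IPs the mitochondrial level was 21278 RPM in *eri-1;cde-1* and 16420 RPM in *eri-1*, a ratio of 1.30 (1.28 to 1.31). The rRNAs had 12491 RPM in *eri-1;cde-1* and 8851 RPM in *eri-1* (1.41, 1.39 to 1.43). The tRNAs had 1566 RPM in *eri-1;cde-1* and 1456 RPM in *eri-1* (1.08, 1.04 to 1.11), and this ratio was below 1 when set against all counted reads (0.875) or against miRNA reads (0.860). The mRNAs had 7222 RPM in *eri-1;cde-1* and 6112 RPM in *eri-1* (1.18, 1.16 to 1.20), which likewise turned to 0.961 and 0.945. None of 24 tested genes passed 2-fold in either direction, against a background of 2.20% of features higher and 5.20% lower. The median log2 ratio was 0.27 over these genes and -0.28 over all features. Of the 24 genes, 16 lay on the other side of 1 under at least 1 other denominator or scaling.

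The difference at L3 was uneven between the rRNAs. MTCE.33 had 10342 RPM in *eri-1;cde-1* and 6997 RPM in *eri-1*, a ratio of 1.48 (1.46 to 1.50). MTCE.7 had 2149 RPM in *eri-1;cde-1* and 1854 RPM in *eri-1*, a ratio of 1.16 (1.13 to 1.19) that was 0.927 with miRNA reads as the denominator. The mRNA ratios ran from 1.10 for COX3 to 1.77 for ND6, which had 80.1 RPM in *eri-1;cde-1* and 45.2 RPM in *eri-1*. Among tRNAs the lowest ratio was that of MTCE.19, at 13.0 RPM in *eri-1;cde-1* and 15.1 RPM in *eri-1* (0.861, 0.609 to 1.21), whose interval includes 1. The highest was that of MTCE.2, at 41.2 RPM in *eri-1;cde-1* and 28.6 RPM in *eri-1* (1.44, 1.16 to 1.79).

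In the HRDE-1 IP the *cde-1* pair differed in the make-up of mitochondrial reads more than in their sum. All genes together stood at 922 RPM in *cde-1* and 916 RPM in the control, a ratio of 1.01 (0.967 to 1.05). The rRNAs had 575 RPM in *cde-1* and 436 RPM in the control (1.32, 1.25 to 1.40), the tRNAs 73.6 RPM in *cde-1* and 172 RPM in the control (0.428, 0.381 to 0.480), and the mRNAs 274 RPM in *cde-1* and 308 RPM in the control (0.888, 0.826 to 0.954). Of 11 tested genes 0 were past 2-fold higher and 2 past 2-fold lower, against 4.64% and 3.95% of all features. The 2 were the only tRNAs with enough reads. MTCE.9 had 16.9 RPM in *cde-1* and 48.3 RPM in the control (0.349, 0.275 to 0.441), and MTCE.13 had 43.6 RPM in *cde-1* and 103 RPM in the control (0.424, 0.365 to 0.493). The highest mRNA ratio was that of COX3, at 63.1 RPM in *cde-1* and 46.7 RPM in the control (1.35, 1.14 to 1.61).

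The WAGO-1 IP gave a similar order of the kinds. The rRNAs had 658 RPM in *cde-1* and 377 RPM in the control (1.74, 1.66 to 1.84), the tRNAs 283 RPM in *cde-1* and 380 RPM in the control (0.745, 0.700 to 0.792), and the mRNAs 256 RPM in *cde-1* and 251 RPM in the control (1.02, 0.950 to 1.09). All genes together had a ratio of 1.19 (1.15 to 1.23), which was 1.02 with miRNA reads as the denominator. Of 12 tested genes 1 was past 2-fold higher and 1 past 2-fold lower, against 6.83% and 15.3% of all features. The higher one was MTCE.7, at 183 RPM in *cde-1* and 81.4 RPM in the control (2.25, 2.02 to 2.50). The lower one was ND1, at 11.5 RPM (78 reads) in *cde-1* and 35.9 RPM (205 reads) in the control (0.320, 0.243 to 0.417). ND1 in the other adult pair, the HRDE-1 IP, had 10.9 RPM in *cde-1* and 15.4 RPM in its control. MTCE.9 had a ratio of 0.748 (0.682 to 0.821) and MTCE.13 of 0.696 (0.636 to 0.762).

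In embryos the rRNA ratio ran the opposite way, and most features of the genome were lower in *cde-1* as well. The mitochondrial level in the NRDE-3 IP was 724 RPM in *cde-1* and 2152 RPM in the control, a ratio of 0.336 (0.324 to 0.350). The rRNAs had 459 RPM in *cde-1* and 1639 RPM in the control (0.280, 0.267 to 0.293), and the tRNAs 78.9 RPM in *cde-1* and 192 RPM in the control (0.412, 0.363 to 0.466). The mRNAs had 186 RPM in *cde-1* and 321 RPM in the control (0.581, 0.532 to 0.635), but this ratio was 1.26 with all counted reads as the denominator, 1.21 with TMM scaling and 1.09 with median-of-ratios scaling. Of 11 tested genes 0 were past 2-fold higher and 7 past 2-fold lower, where 3.67% of all features were higher and 84.9% lower. The median log2 ratio was -1.15 over the mitochondrial genes and -1.93 over all 1446 features tested. The share of lower genes, 63.6%, was thus below the background.

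The largest embryonic difference among tested genes was in MTCE.7, at 236 RPM in *cde-1* and 1006 RPM in the control (0.235, 0.220 to 0.251). MTCE.33 had 222 RPM in *cde-1* and 634 RPM in the control (0.351, 0.327 to 0.377). The control embryo library was the one with 66.2% nuclear rRNA, against 26.9% in the *cde-1* embryo library, and the part of that in the mitochondrial ratios was not tested. COX1 differed least, with 82.1 RPM in *cde-1* and 114 RPM in the control (0.721, 0.626 to 0.831), a ratio that other scalings turned to as much as 1.63. The tRNAs with enough reads were MTCE.13, with a ratio of 0.324 (0.262 to 0.398), and MTCE.9, with a ratio of 0.449 (0.358 to 0.563). Both rRNAs, MTCE.13 and ND1 stayed below 1 under each scaling computed, and the other 7 tested genes did not.

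Ratios of one kind of mitochondrial read to another do not depend on the denominator. There were 2.65 rRNA reads per mRNA read in *cde-1* and 1.66 in N2 total small RNA, a change of 1.60 (1.57 to 1.62). For the HRDE-1 IP the change was 1.49 (1.36 to 1.63), with 2.10 in *cde-1* and 1.41 in the control. The WAGO-1 IP gave 1.71 (1.57 to 1.87), with 2.57 in *cde-1* and 1.50 in the control. At L3 it was 1.19 (1.17 to 1.22), with 1.73 in *eri-1;cde-1* and 1.45 in *eri-1*, and this rested on MTCE.33, since MTCE.7 alone gave 0.981 (0.951 to 1.01). In embryos it was 0.481 (0.436 to 0.532), with 2.46 in *cde-1* and 5.11 in the control. The rRNA reads were thus raised relative to mRNA reads in *cde-1* in the 4 pairs of adults and larvae and lowered in embryos.

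The ratio of tRNA to mRNA reads did not follow that of rRNA. In total small RNA it was 1.97 in *cde-1* and 1.91 in N2, a change of 1.03 (1.01 to 1.05). For HRDE-1 it was 0.269 in *cde-1* and 0.558 in the control (0.482, 0.422 to 0.551), and for WAGO-1 1.10 in *cde-1* and 1.51 in the control (0.731, 0.666 to 0.802). At L3 it was 0.217 in *eri-1;cde-1* and 0.238 in *eri-1* (0.910, 0.879 to 0.943). In embryos it was 0.423 in *cde-1* and 0.598 in the control (0.708, 0.609 to 0.823). The summed tRNA reads were thus lower relative to mRNA reads in *cde-1* in every IP pair and slightly higher in total small RNA. These sums rested on few tRNAs. MTCE.9 and MTCE.13 held 65.6% to 93.4% of tRNA reads in the IP libraries, and MTCE.10 held 51.8% in *cde-1* and 52.6% in N2 total small RNA. In total small RNA the median log2 ratio was 1.08 over the 20 tRNAs tested and 0.62 over the 12 mRNAs.

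The adult IPs held few of the mitochondrial fragments seen in total small RNA of N2. All 3 libraries also served as controls of the *cde-1* pairs above, and N2 served both IPs. The level was 916 RPM in the HRDE-1 IP and 26504 RPM in total small RNA, a ratio of 0.0346 (0.0335 to 0.0357). In the WAGO-1 IP it was 1008 RPM, against 26504 RPM in total small RNA, a ratio of 0.0380 (0.0370 to 0.0390). All 33 tested genes were past 2-fold lower in the HRDE-1 IP and none higher, where 67.1% of all features were lower and 4.47% higher. All 33 were also past 2-fold lower in the WAGO-1 IP and none higher, where 84.0% of features were lower and 4.15% higher. In each IP, 22 of the 33 reached 50 reads only in N2 total small RNA, so that the minimum itself favoured a lower level and the count is no support for one. The 11 that reached it in the HRDE-1 IP too had ratios from 0.0208 (MTCE.9) to 0.116 (MTCE.13). In the WAGO-1 IP the 11 that did so had ratios from 0.0189 (MTCE.7) to 0.210 (MTCE.13). The median log2 ratio for HRDE-1 was -5.41 over the 33 mitochondrial genes and -1.50 over all features, and for WAGO-1 -5.56 and -2.10. These medians include the 22 genes that reached the minimum only in N2 total small RNA, so they are no support for a lower level either. Sense reads on nuclear tRNA genes were at 1105 RPM with HRDE-1 and 393 RPM with WAGO-1, against 56887 RPM in N2 total small RNA. These ratios of 0.0194 and 0.00692 lay below those of all mitochondrial genes together. The mitochondrial tRNAs alone had a ratio of 0.0155 with HRDE-1, below that of the nuclear tRNAs, and of 0.0343 with WAGO-1, above it. Reads on miRNAs themselves stood at 0.171 of the N2 total level with HRDE-1 and 0.0429 with WAGO-1. Relative to miRNA reads the mitochondrial ratios were 0.201 for HRDE-1 and 0.875 for WAGO-1, and 17 of the 33 genes were past 2-fold lower and 5 higher for WAGO-1. The median log2 ratio of all features was then 1.04 for HRDE-1 and 2.42 for WAGO-1. Their share past 2-fold is not given for that denominator.

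The tRNA level was 172 RPM with HRDE-1 and 380 RPM with WAGO-1, against 11077 RPM in N2 total small RNA, which are ratios of 0.0155 and 0.0343. Without MTCE.10 these were 0.0323 and 0.0711. MTCE.10 had 2.61 RPM (11 reads) with HRDE-1 and 6.47 RPM (37 reads) with WAGO-1, against 5829 RPM in N2 total small RNA, giving ratios of 0.000447 and 0.00111. MTCE.13, at MtDNA:3244-3305, had 103 RPM with HRDE-1 and 186 RPM with WAGO-1, against 884 RPM in total small RNA, which are ratios of 0.116 and 0.210. MTCE.9 had 48.3 RPM with HRDE-1 and 168 RPM with WAGO-1, against 2325 RPM in total small RNA. MTCE.9 and MTCE.13 together made up 87.9% of mitochondrial tRNA reads with HRDE-1 and 93.4% with WAGO-1, against 29.0% in total small RNA. MTCE.18 had no read in either IP, which allows up to 3 reads, against 583 reads in total small RNA.

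The same pair of tRNAs led in every IP library. Their share of mitochondrial tRNA reads was 82.1% in the *cde-1* HRDE-1 IP, 90.4% in the *cde-1* WAGO-1 IP, 65.6% in the *cde-1* and 71.9% in the control NRDE-3 IP of embryos, and 76.7% in the *eri-1;cde-1* and 77.8% in the *eri-1* IP of L3 larvae. MTCE.10 made up between 0.201% and 6.92% of tRNA reads in the IP libraries. Its level was 26.6 RPM in *eri-1;cde-1* and 27.8 RPM in *eri-1* L3 larvae, where the mitochondrial level as a whole was nearer to that of total small RNA. MTCE.28 and MTCE.30 had 47.5 and 52.5 RPM in *eri-1;cde-1* and 50.5 and 56.5 RPM in *eri-1* larvae. Strain, stage, food and IP differ between the L3 and total libraries, and their parts in these differences cannot be told apart.

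The balance of the rRNAs also differed between libraries. MTCE.33 over MTCE.7 per kb was 0.790 in *cde-1* and 0.903 in N2 total small RNA. For HRDE-1 it was 1.74 in *cde-1* and 2.12 in the control, and for WAGO-1 1.90 in *cde-1* and 2.66 in the control. It was 0.688 in *cde-1* embryos and 0.461 in control embryos, and 3.52 in *eri-1;cde-1* and 2.76 in *eri-1* L3 larvae. The longer rRNA thus led per kb in the adult and L3 IPs, and the shorter in total small RNA and embryos.

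The NRDE-3 IP of *eri-1* L3 larvae differed from that of embryos in stage, *eri-1* and food together, which cannot be told apart, and both libraries were also controls of *cde-1* pairs. The mitochondrial level was 16420 RPM at L3 and 2152 RPM in embryos, a ratio of 7.63 (7.44 to 7.83), which was 13.8 with all counted reads as the denominator and 1.14 with median-of-ratios scaling over rows of at least 50 reads. The mRNAs had 6112 RPM at L3 and 321 RPM in embryos (19.1, 17.9 to 20.3), the tRNAs 1456 RPM at L3 and 192 RPM in embryos (7.60, 6.98 to 8.28), and the rRNAs 8851 RPM at L3 and 1639 RPM in embryos (5.40, 5.24 to 5.56), which under that last scaling was 0.808. Of 23 tested genes 21 were past 2-fold higher and 0 lower, where 91.5% of all features were higher and 1.94% lower, so this count was near the background, and 12 of the 23 reached 50 reads only at L3. Relative to mRNA reads, rRNA reads were at 1.45 at L3 and 5.11 in embryos, a change of 0.283 (0.264 to 0.304).

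Single genes spread widely in the L3 and embryo comparison. MTCE.7 had 1854 RPM at L3 and 1006 RPM in embryos (1.84, 1.77 to 1.92; 0.276 under the last scaling), and MTCE.33 had 6997 RPM at L3 and 634 RPM in embryos (11.0, 10.5 to 11.6). COX1 had 2281 RPM at L3 and 114 RPM in embryos (20.0, 18.0 to 22.4), and COX3 had 839 RPM at L3 and 31.9 RPM in embryos (26.3, 21.5 to 32.5). MTCE.10 had 27.8 RPM at L3 and 10.9 RPM in embryos (2.57, 1.75 to 3.87; 0.384 under that scaling). The mRNAs thus stood further apart between these libraries than MTCE.7 or MTCE.10 did.

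The remaining mRNAs followed the same ranges. ND5 had 956 RPM in *cde-1* and 709 RPM in N2 total small RNA, CYTB 1051 RPM in *cde-1* and 736 RPM in N2, and COX2 659 RPM in *cde-1* and 355 RPM in N2. ND4 had 315 RPM in *cde-1* and 196 RPM in N2, and ND2 359 RPM in *cde-1* and 326 RPM in N2. ND6 had 197 RPM in *cde-1* and 115 RPM in N2, and ND3 88.0 RPM in *cde-1* and 45.6 RPM in N2. Each was thus higher in *cde-1* in total small RNA, though none of these passed 2-fold and ND2 turned to 0.931 with TMM scaling. In the control HRDE-1 and WAGO-1 IPs, COX1 led the mRNAs in RPM with 114 and 81.9, followed by ND5 with 49.3 and 39.2. ND6 and ND4L had fewer than 10 reads in each of the 6 HRDE-1, WAGO-1 and embryo NRDE-3 libraries.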

How the data were processed

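Per the labels, small RNAs of every library were treated with alkaline phosphatase and polynucleotide kinase, gel-purified at 17 to 30 nt and sequenced; the study's methods describe the treatment under the IPs and give a lower length limit that is slightly higher. The authors filtered the reads, used Bowtie2 with default settings against WS243 transcripts, and deposited raw counts of same-strand and opposite-strand reads per transcript. Between 1 and 3 rows without a class were left out of each library (at most 0.00152% of reads). The deposited tail table of 26S rRNA, whose 6 columns of values could not be matched to samples, was not used. Coordinates came from Ensembl release 115 (WBcel235), in which all 36 genes matched by identifier, and the 12 mRNA symbols from RefSeq.

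Ratios of RPM have exact conditional-binomial intervals, shares have Clopper-Pearson intervals, and changes of read ratios have log-normal intervals (95%). A gene was counted as past 2-fold, with 1 read added to each library, where either library had at least 50 sense reads. RPM of 1 read was between 0.147 and 0.329, and the floor was 3 reads. Both rRNAs, all mRNAs, the 5 tRNAs highest in mean RPM, the tRNAs of extreme ratio in each *cde-1* pair, and from each nuclear list the 2 genes highest in antisense RPM could be named; some other tRNAs were named after their values were seen. The members, lists and tests were chosen with earlier results of these data known. Since each group had 1 library, no count model was tested. The alternatives were other denominators, TMM scaling (edgeR 4.0.16), median-of-ratios scaling (DESeq2 1.42.0), other read minimums (10 reads or none), 10 added reads and leaving out the gene with most reads. Added after seeing the data were median-of-ratios scaling over rows of at least 50 reads, tRNA ratios without MTCE.10, and rRNA-to-mRNA changes without COX1, MTCE.7 or MTCE.33. The code was tested on simulated data. Python 3.11.15, pandas 2.3.3, scipy 1.17.1 and R 4.3.3 were used.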

Additional observations from a re-analysis of the deposited data

Results flagged for a closer look

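Mitochondrial levels moved in opposite directions between *cde-1* pairs, which drew attention to them, although each pair has 1 library per genotype and the difference between pairs was not tested. For all genes together, the ratio of *cde-1* to its control was 1.76 in total small RNA, 1.30 in the L3 NRDE-3 IP with *eri-1* and 1.19 in the WAGO-1 IP, but 0.336 in the NRDE-3 IP of embryos. For rRNA it was 2.29 in total small RNA, 1.41 at L3, 1.32 for HRDE-1 and 1.74 for WAGO-1, but 0.280 in embryos. For tRNA it was 1.47 in total small RNA and 1.08 at L3, but 0.428 for HRDE-1, 0.745 for WAGO-1 and 0.412 in embryos. For mRNA it was 1.43 in total small RNA and 1.18 at L3, but 0.888 for HRDE-1 and 0.581 in embryos. The tRNA and mRNA ratios at L3 and the mRNA ratio in embryos changed direction with the denominator or scaling. In the embryo pair 84.9% of all 1446 features tested were past 2-fold lower. Their median log2 ratio was -1.93, against -1.15 over the 11 mitochondrial genes tested.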

How the results depend on the processing

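A fit with the replicate number as a block could not be made because each group had 1 library, and a fit over the 5 *cde-1* pairs, which differ in IP, stage and strain, was not run. Relative to all counted reads, the ratio of all mitochondrial sense reads between *cde-1* and control was 1.59 in total small RNA, 0.727 in embryos and 1.05 at L3, the HRDE-1 and WAGO-1 IPs over total gave 0.0414 and 0.0503, and L3 over embryo 13.8. With only sense rRNA reads subtracted, these were 1.73, 0.390 and 1.17, then 0.0395 for the WAGO-1 IP over total and 8.53 for L3 over embryo. With miRNA reads as the denominator they were 1.68 in total, 0.413 in embryos, 1.04 at L3 and 1.02 in the WAGO-1 pair, then 0.201 and 0.875 over total and 2.14. Without mitochondrial reads in the denominator the total ratio was 1.80. TMM scaling gave 1.49 in total, 0.698 in embryos, 1.39 at L3, 1.12 for HRDE-1 and 1.33 for WAGO-1, then 0.0424, 0.0775 and 3.20. Median-of-ratios scaling gave 1.53, 0.628, 1.32, 1.08 and 1.41, then 0.0415, 0.0747 and 3.24, and over rows of at least 50 reads (chosen after seeing the data) 1.71, 0.759, 1.52, 0.963 and 1.32, then 0.0607, 0.109 and 1.14. Without MTCE.33 the ratio was 1.66 in total, 1.16 at L3, 0.874 for HRDE-1, 1.01 for WAGO-1 and 6.21 for L3 over embryo. Without MTCE.7 it was 0.426 in embryos, and without MTCE.10 0.0442 and 0.0484 over total. The mRNA ratio in embryos turned to 1.26, 1.21, 1.09 and 1.31 with all counted reads, TMM and the 2 median-of-ratios scalings. At L3 all counted reads and miRNA reads turned the tRNA ratio to 0.875 and 0.860 and the mRNA ratio to 0.961 and 0.945, and rRNA at L3 over embryo turned to 0.808 with median-of-ratios scaling over rows of at least 50 reads. The rRNA-to-mRNA change turned to 0.981 at L3 without MTCE.33, and to 1.15 and 1.29 in the HRDE-1 and WAGO-1 IPs over total without MTCE.7, against 0.853 and 0.906 with it. Of 192 alternative ratios of levels, 183 kept their direction or belonged to a ratio whose interval includes 1. The cause was not tested.

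These scalings shifted the median log2 ratio of all features by -0.24 to 0.03 in total small RNA, 0 to 1.17 in embryos, -0.32 to 0.23 at L3, -0.06 to 0.15 for HRDE-1, -0.22 to 0.25 for WAGO-1, -0.04 to 2.54 and -0.04 to 4.52 over total, and -2.74 to 0.85 for L3 over embryo. The number of genes past 2-fold lower in embryos was 11 at 10 reads, 13 with no minimum (1 higher), 4 with miRNA reads, 1 with TMM or median-of-ratios scaling and 0 with all counted reads, against 7. The HRDE-1 pair had 4 and 10 lower at 10 reads and no minimum, against 2, the L3 pair 3 and 6 higher, against 0, and the WAGO-1 pair 2 and 4 higher, or 0 with miRNA reads, against 1. The share of all features past 2-fold is not given for these settings, so these counts have no background. Lower minimums admit genes with few reads, such as MTCE.10 with 1 read in *cde-1* and 11 in the HRDE-1 control. The low mitochondrial level limited the IP libraries other than L3, which were not all shallower but in which 2 tRNAs at most reached 50 reads.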
